A study of Homo sapiens with 12 samples.

Results

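The genes described here are those whose probes lost a detectable signal when NT2/D1 cells were kept in 5-aza for 3 days. A probe was counted as lost when it carried a single gene symbol, had a detection p-value under 0.05 on all 3 control arrays and had one of 0.05 or more on all 3 arrays of the 3 day group. The detection p-value gauges a probe's brightness by the array's own negative control beads. The rule found 198 probes of 196 genes, out of 30112 named probes of 20045 genes on the array. Of the named probes, 11204 (8949 genes) were detected on all 3 control arrays, so the lost probes were 1.77% of them. The members were chosen by measured values of the 3 day and control arrays, so what those arrays show of them is a description. The 1 day and cisplatin arrays took no part in the choice.

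NT2/D1 is a pluripotent human embryonal carcinoma line from a testicular germ cell tumour. The 4 groups of 3 arrays were cells given 10 nM 5-aza deoxycytidine (5-aza) for 1 day, cells given 10 nM 5-aza for 3 days with fresh drug each day, cells given 0.5 µM cisplatin for 6 hours and harvested 24 hours later, and control cells. The control cells are untreated per the sample labels, while the series design has them receive vehicle. The study calls its replicates biological, and how they were grown is not given in the labels, so p-values measure the spread between these samples. All 12 arrays shared a BeadChip and lay on it in the order of the groups, so that position and group cannot be told apart.

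5-aza is a cytidine analog that is built into DNA during replication and traps DNA methyltransferases, so that methylation is lost over rounds of cell division. Genes silenced by methylation can then come on. Cisplatin crosslinks DNA and serves as the comparison of a DNA damaging drug. A signal that sinks into the background of a bead array marks a transcript that was already scarce or became so, and it gives only a limit on how far the transcript fell. In a population of cells, less RNA per cell and fewer expressing cells cannot be told apart.

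Between 15435 and 19824 probes per array passed the detection p-value. Median intensity was 154.3 to 165.5 units on the 3 day arrays and 180.0 to 188.4 on the controls, and the dimmest detected probe read 179.2 to 193.2 and 207.6 to 216.9 units on them. The signals below are log2 intensities after background correction and quantile normalization, with the dimmest detected signal at 6.15 to 6.45 on every array. Cisplatin replicate 3 stood apart, with 19824 probes detected. Of 15 markers of embryonal carcinoma, 14 had a probe and 13 were detected on all 3 day and all control arrays (ZFP42 on none). The array mean of the 14 was 10.61 to 10.7 at 3 days and 11.3 to 11.42 in controls. Here and below such means take in every marker of the type that had a probe, detected or not. TERF1 is read here by a bright probe, while another of its probes is among the lost. Of 10 fibroblast or stromal markers 4 were detected in each of these groups (LUM on no array), with means of 7.51 to 7.64 at 3 days and 7.37 to 7.51 in controls. Only 1 of 6 trophoblast markers was detected in either group, with means of 6.28 to 6.49 at 3 days and 6.23 to 6.28 in controls, while 3 of 5 neural markers were detected in each, at 8.84 to 8.93 and 8.42 to 8.78. The part of these shifts in the results below was not tested.

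The lost probes were dim from the start. Their control means ran from 6.37 to 8.33 with a median of 6.84, and the median of all named probes detected on the controls was 8.75. Of all those named probes, 58.6% were brighter than the brightest lost probe. At 3 days the median of the lost probes' group means was 6.11. Because the 3 day signals lay in the background, each fall is given as a lower limit, the control mean against the 3 day mean with each array raised to its dimmest detected signal. This limit was 2-fold or more for 29 probes, at least 1.5-fold for 72 and under 1.25-fold for 73, with a median of 1.36-fold and a maximum of 3.8-fold. For 4 probes, of FOXD4L4, MCTP1, RASGRP4 and TLR10, no fold can be given because the control mean was no higher than that limit. For 101 probes the highest 3 day array lay below all 9 other arrays. The rule chose probes for being low on the 3 day arrays and detected on the controls, so this count was partly fixed by the choice. Its share over all probes was not computed, and nothing is read from it.

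The threshold itself cut through a continuum. Just inside it were EOGT and LRRC59, each with a control detection p-value of 0.04935, and MSI2 and SH2D1A, each with a 3 day value of 0.05065. Just outside it were AVEN and ERCC6, each detected on a single 3 day array at 0.04935, and COX6B2 and HIPK1, each missed on a single control array at 0.05065. A further 236 named probes were detected on all controls and on only 1 of the 3 day arrays. Of the lost probes, 103 had a control value under 0.01 on all 3 arrays and 95 had a 3 day value of 0.1 or more on all 3. Leaving out control replicate 2, which had the fewest detected probes, gave 504 lost probes in place of 198. The same rule read in the other direction, undetected on all controls and detected on all 3 day arrays, was met by 182 named probes.

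Promoter sequence is shown for genes that span the range of CpG content among the most reduced members, since CpG is where the methylation that 5-aza removes lies, and for CYP26A1, whose arrays differed between treatments. Each is 250 bases before to 50 after the gene's start in RefSeq (GRCh38.p14), written 5′ to 3′ on the gene's strand with every CpG in capitals. Of the 20 genes with the largest limits 15 had a promoter in the RefSeq table, with 3 to 43 CpG. The median was 14 over all 27305 promoters. Over the 7357 promoters of genes detected on all controls it was 27, with quartiles of 19 and 34. The RefSeq start need not be that of the transcript the probe reads.
TMT1A (chr12:50924765-50925064, plus strand, 3 CpG): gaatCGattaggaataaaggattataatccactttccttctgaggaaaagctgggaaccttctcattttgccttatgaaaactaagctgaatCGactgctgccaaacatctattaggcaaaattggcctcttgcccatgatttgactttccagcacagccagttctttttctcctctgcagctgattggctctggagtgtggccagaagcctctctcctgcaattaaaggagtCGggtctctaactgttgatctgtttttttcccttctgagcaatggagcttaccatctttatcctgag
PDE4B (chr1:65792260-65792559, plus strand, 19 CpG): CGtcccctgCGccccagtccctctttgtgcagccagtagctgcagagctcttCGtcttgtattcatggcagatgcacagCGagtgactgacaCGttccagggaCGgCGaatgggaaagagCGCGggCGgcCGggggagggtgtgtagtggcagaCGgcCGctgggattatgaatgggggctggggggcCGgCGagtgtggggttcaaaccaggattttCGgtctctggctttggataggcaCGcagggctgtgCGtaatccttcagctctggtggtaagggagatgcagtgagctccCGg
ITPK1 (chr14:93115876-93116175, minus strand, 43 CpG): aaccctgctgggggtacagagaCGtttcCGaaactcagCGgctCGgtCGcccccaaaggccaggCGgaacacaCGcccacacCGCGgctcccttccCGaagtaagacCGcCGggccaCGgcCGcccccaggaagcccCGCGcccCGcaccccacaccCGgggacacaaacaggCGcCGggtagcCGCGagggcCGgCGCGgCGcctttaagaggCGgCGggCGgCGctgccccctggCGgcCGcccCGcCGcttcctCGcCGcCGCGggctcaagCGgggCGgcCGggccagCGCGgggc
CYP26A1 (chr10:93073225-93073524, plus strand, 12 CpG): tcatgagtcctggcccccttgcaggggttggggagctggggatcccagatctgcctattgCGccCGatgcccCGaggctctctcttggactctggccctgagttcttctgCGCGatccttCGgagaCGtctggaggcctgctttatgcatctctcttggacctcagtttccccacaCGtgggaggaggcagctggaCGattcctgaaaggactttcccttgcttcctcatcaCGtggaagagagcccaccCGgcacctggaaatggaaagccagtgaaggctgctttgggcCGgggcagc
TMT1A, a thiol methyltransferase, and ITPK1, an inositol phosphate kinase, hold the fewest and the most CpG among the most reduced members with a promoter, and 25.3% of all promoters hold 3 or fewer and 4.87% hold 43 or more. Promoters were found for only 146 of the 196 genes (74.5%), against 82.2% of the genes detected on all controls. A comparison of the set with other genes is not given.

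The 20 members with the largest limits are given by known role, a grouping made after their values were seen and not tested. LEFTY1, a secreted inhibitor of Nodal, the ligand that helps to hold pluripotent cells in their state, had the largest limit. Its signal was 8.67, 8.33 and 8.45 on the 1 day arrays, 6.05, 6.01 and 6.04 on the 3 day arrays, 8.76, 8.59 and 9.51 on the cisplatin arrays and 8.27, 8.35 and 8.36 on the controls. Only the 3 day arrays were low, and the limit was at least 3.8-fold. EFNB1, the ephrin-B1 ligand of Eph receptors, read 7.99, 7.83 and 7.48 at 1 day, 6.19, 5.94 and 6.15 at 3 days, 7.03, 7.58 and 8.03 with cisplatin and 8.11, 7.83 and 7.39 in controls, with a limit of at least 2.6-fold. The 1 day, cisplatin and control arrays overlapped.

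EPHB1, a receptor for such ligands, read 6.51, 6.33 and 6.36 at 1 day, 6.14, 6.04 and 6.17 at 3 days, 7.05, 5.64 and 7.38 with cisplatin and 7.74, 7.28 and 7.27 in controls (at least 2.04-fold). All 1 day arrays lay below all controls. GPC6, a glypican of the cell surface, read 7.48, 7.30 and 7.57 at 1 day, 6.08, 6.05 and 5.76 at 3 days, 7.37, 6.25 and 6.82 with cisplatin and 7.75, 7.42 and 7.84 in controls (at least 2.41-fold). Its cisplatin arrays all lay below the controls. GLI2, a transcription factor of the Hedgehog pathway, read 5.86, 6.93 and 6.78 at 1 day, 5.70, 5.62 and 5.83 at 3 days, 6.57, 7.44 and 9.32 with cisplatin and 8.06, 7.38 and 7.37 in controls (at least 2.3-fold). The cisplatin arrays lay on both sides of the controls, and the 1 day arrays lay below them.

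PDE4B, a phosphodiesterase that breaks down cyclic AMP, read 7.28, 6.78 and 7.30 at 1 day, 5.65, 5.61 and 5.82 at 3 days, 9.02, 8.34 and 9.24 with cisplatin and 8.13, 7.81 and 7.68 in controls (at least 2.78-fold). No groups overlapped, and the order was cisplatin, control, 1 day and 3 days from high to low. PITPNC1, a phosphatidylinositol transfer protein, had a pair of lost probes. The brighter read 6.94, 6.59 and 7.19 at 1 day, 5.82, 6.19 and 6.06 at 3 days, 7.15, 7.68 and 8.78 with cisplatin and 8.48, 7.97 and 7.69 in controls (at least 3.12-fold), and for the dimmer the limit was 1.2-fold. ITPK1 read 6.24, 6.38 and 6.20 at 1 day, 5.68, 5.66 and 5.68 at 3 days, 6.54, 6.54 and 9.54 with cisplatin and 8.25, 7.33 and 7.16 in controls (at least 2.27-fold). A single cisplatin array, replicate 3, stood far above the others, and the 1 day arrays lay below every control.

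MYC, the transcription factor that drives growth and ribosome synthesis, read 7.93, 8.26 and 8.34 at 1 day, 5.53, 5.37 and 5.34 at 3 days, 8.24, 8.22 and 7.65 with cisplatin and 8.14, 7.83 and 8.01 in controls (at least 3.02-fold). The 1 day, cisplatin and control arrays overlapped and the 3 day arrays stood apart. TERF1, a telomere repeat binding protein that is abundant in pluripotent cells, read 7.61, 7.65 and 7.74 at 1 day, 6.06, 5.77 and 5.50 at 3 days, 7.78, 6.70 and 9.32 with cisplatin and 8.29, 8.01 and 8.43 in controls (at least 3.58-fold). Its 1 day arrays lay below all controls. RRM2, the small subunit of ribonucleotide reductase, read 7.90, 7.56 and 7.74 at 1 day, 6.10, 6.06 and 6.06 at 3 days, 7.83, 9.19 and 10.35 with cisplatin and 8.15, 7.73 and 7.59 in controls (at least 2.68-fold). Here too the highest array was cisplatin replicate 3.

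CDK12, a kinase of the RNA polymerase tail, read 7.53, 7.55 and 7.45 at 1 day, 6.04, 5.83 and 6.08 at 3 days, 7.43, 6.55 and 8.11 with cisplatin and 7.88, 7.68 and 7.59 in controls (at least 2.49-fold). ING3, a subunit of a histone acetyltransferase complex, read 7.72, 8.04 and 8.13 at 1 day, 6.28, 6.23 and 6.32 at 3 days, 8.18, 6.76 and 6.61 with cisplatin and 7.49, 7.74 and 7.75 in controls (at least 2.39-fold). RBM15B, an RNA binding protein, was even across the other groups at 7.71, 7.68 and 7.63 at 1 day, 7.22, 7.31 and 7.84 with cisplatin and 7.76, 7.50 and 7.59 in controls, and read 6.35, 6.23 and 6.20 at 3 days (at least 2.32-fold).

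TMT1A read 7.33, 7.68 and 7.78 at 1 day, 5.52, 5.39 and 5.42 at 3 days, 8.15, 7.48 and 8.05 with cisplatin and 7.92, 7.75 and 7.77 in controls (at least 2.66-fold). SLC13A3, a sodium coupled transporter of dicarboxylates, read 7.48, 7.61 and 7.32 at 1 day, 6.31, 6.21 and 6.15 at 3 days, 7.54, 6.71 and 7.16 with cisplatin and 8.13, 8.01 and 7.73 in controls (at least 2.94-fold). For SLC13A3 every array of the other groups lay below every control, and for TMT1A the groups other than 3 days overlapped. The remaining members of the 20 most reduced were FAM120AOS, a gene on the strand opposite FAM120A, the membrane proteins TMEM132D, AIG1 and ENTREP1, and NCDN, which encodes neurochondrin. Their limits ran from 2.49-fold for NCDN to 2.67-fold for FAM120AOS. Another FAM120AOS probe was detected on every 3 day array and averaged 9.45 there, against 9.73 in controls (log2 −0.28 ± 0.18, SE). Other NCDN probes were each detected on 2 of the 3 arrays at 3 days, with log2 differences of −0.54 ± 0.40 and −0.11 ± 0.19.

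**Figure D1:**
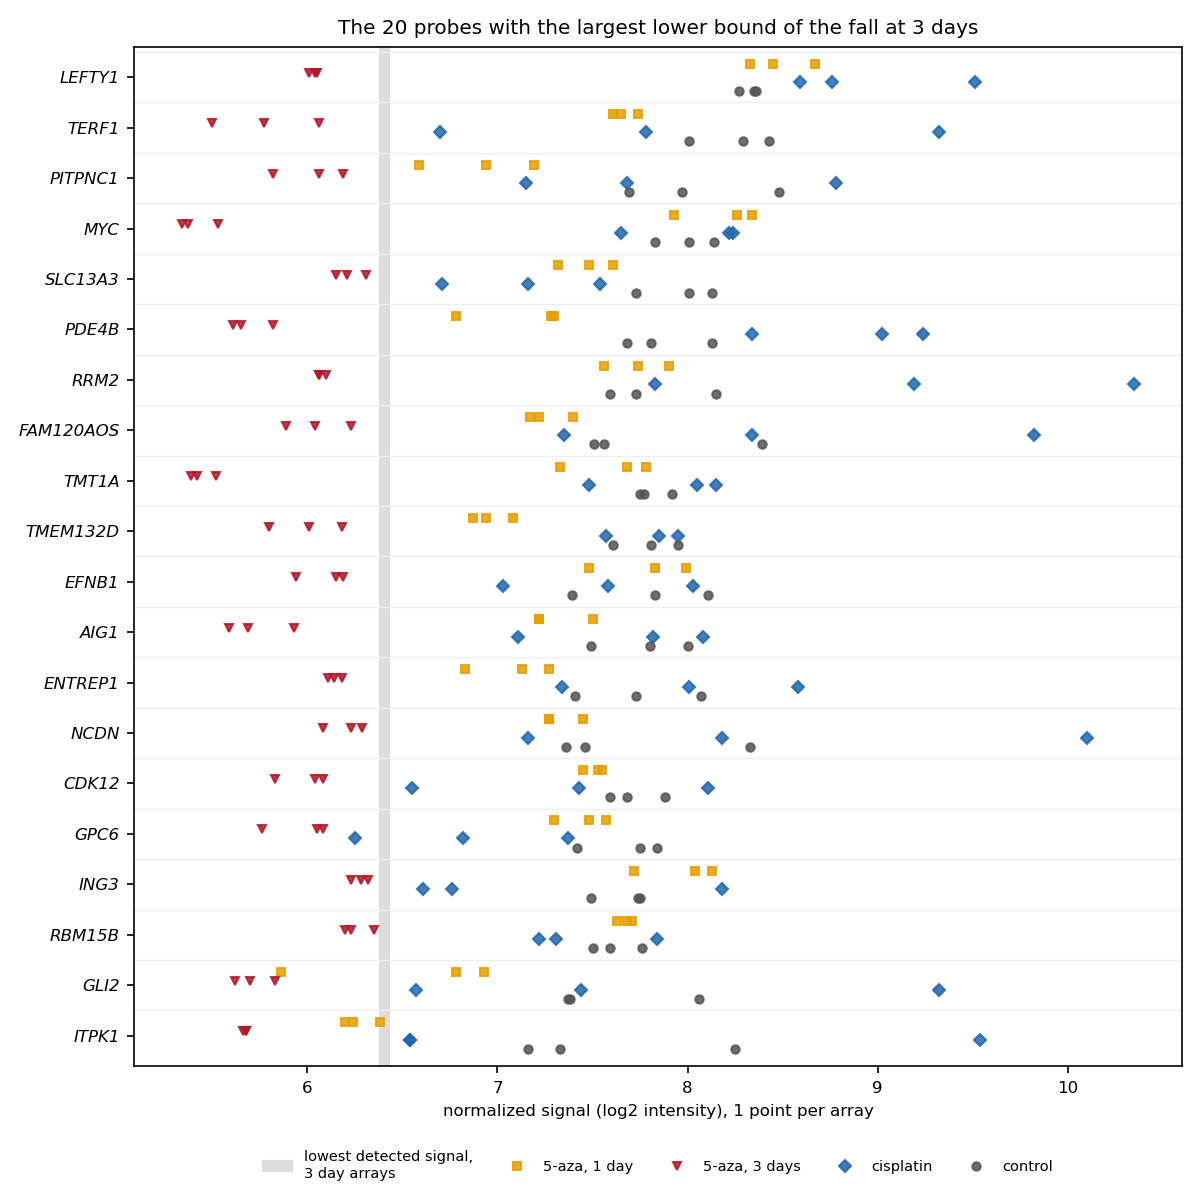
Normalized signal (log2 intensity, horizontal axis) of the 20 lost probes with the largest limits, with a point for each of the 12 arrays and the groups from top to bottom within each row as 1 day, 3 days, cisplatin and control. The grey band marks the dimmest detected signal of the 3 day arrays (6.38 to 6.43), and all 3 day points lie left of it, while for LEFTY1 and MYC all other points lie at 7.65 or more.

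On the arrays that the rule did not use, most lost probes were still detected. On the 1 day arrays 97 of the 198 (49.0%) were detected on all 3, 49 on 2, 28 on 1 and 24 (12.1%) on none. On the cisplatin arrays the numbers were 107 (54.0%), 55, 24 and 12 (6.06%). Of all named probes detected on the controls, 95.4% were detected on all 1 day arrays and 94.8% on all cisplatin arrays, and 0.536% and 0.223% were detected on none of them. These backgrounds hold many brighter probes, as the medians above show, and the control arrays that chose the members stand on the high side of the comparison. All 6 of these arrays detected 70 of the lost probes, and none of the 6 detected 4 (NLRP8, SNORD107, FOXD4L4 and MCTP1). Of the 29 probes with a limit of 2-fold or more, 24 were detected on all 6 arrays and all 29 on at least 1 array of each group. Of the 73 with a limit under 1.25-fold, 11 were detected on all 6.

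The number of lost probes detected was 138, 151 and 128 on the 1 day arrays and 136, 138 and 181 on the cisplatin arrays. Without cisplatin replicate 3 the probes undetected with cisplatin numbered 33 in place of 12. Without 1 day replicate 2 those undetected at 1 day numbered 38 in place of 24. The median signal of the lost probes was 6.59, 6.65 and 6.99 on the cisplatin arrays, against 6.97, 6.84 and 6.75 on the controls. Cisplatin replicate 3 was the highest of all 12 arrays for 80 lost probes (40.4%) and for 19.9% of all tested probes.

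**Figure D2:**
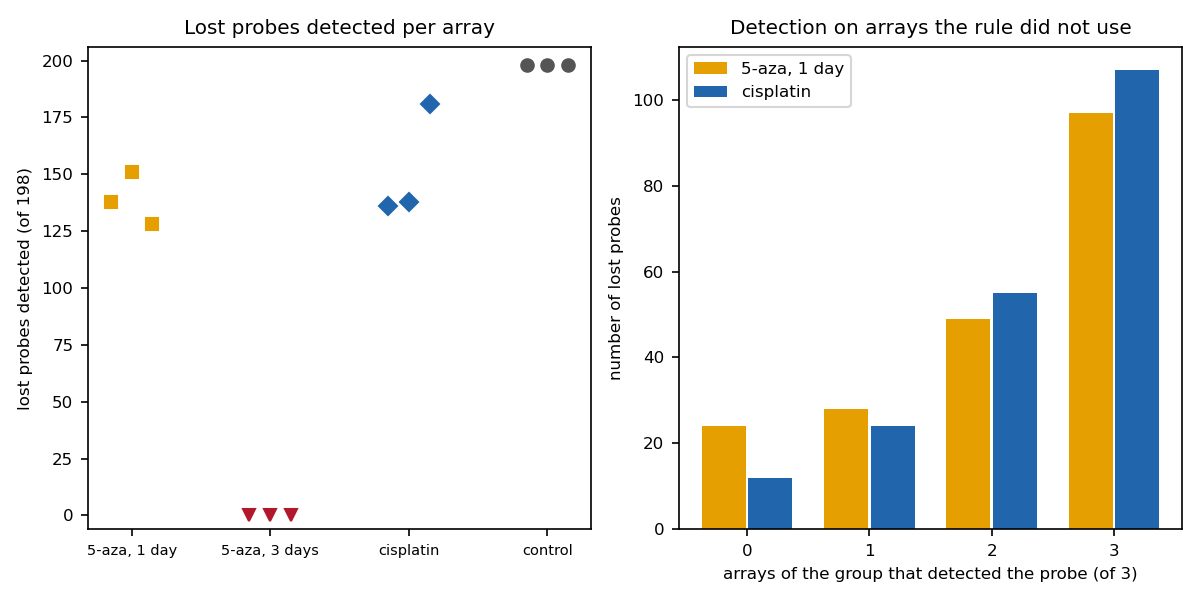
Left, how many of the 198 lost probes were detected on each array (1 point per array, 3 per group), with 128 to 151 at 1 day, 136 to 181 with cisplatin, and 0 at 3 days and 198 in controls as the rule fixed. Right, the number of lost probes by how many of the 3 arrays of the 1 day and cisplatin groups detected them, with 24 and 12 probes on none and 97 and 107 on all 3.

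The comparison of 1 day of 5-aza with cisplatin asks whether the early 5-aza cells and the cells recovering from cisplatin differed in these transcripts. Its log2 differences are between groups that took no part in the choice. Its standard errors and p-values are not free of the rule, as they rest on the spread within groups over all 12 arrays. It was fitted with limma over all 14295 named probes detected on at least 3 of the 12 arrays, which every lost probe passes through the controls, with p-values adjusted by the Benjamini-Hochberg method. The test called 8 lost probes lower at 1 day (background 0.874% of all tested probes) and 1 higher (background 0.462%), together 4.55% of the 198. All 1 day arrays lay below all cisplatin arrays for 33 lost probes and above them for 14, where the backgrounds were 8.63% and 12.6%. The median log2 difference was −0.16, with quartiles of −0.58 and 0.12, and 0.05 over all tested probes. The 1 day mean was below the cisplatin mean for 126 of the 198 and for 6390 of all 14295 tested probes. Without cisplatin replicate 3 the median was −0.06, and with median scaling it was −0.40.

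Of the called probes, PDE4B differed most, at log2 −1.74 ± 0.23 (SE, limma adjusted p = 0.00176, n = 3 arrays each), with all 1 day arrays below and all cisplatin arrays above the controls. COL26A1, a collagen chain, was undetected at 1 day with 5.62, 6.18 and 6.20, against 6.91, 7.35 and 8.22 with cisplatin, at least 2.18-fold lower (limma adjusted p = 0.0382). TLN2, the cytoskeletal linker talin-2, was likewise undetected at 1 day with 6.06, 5.98 and 6.03, against 6.93, 7.33 and 8.23 with cisplatin, at least 2.19-fold lower (limma adjusted p = 0.0229). For both genes cisplatin replicate 3 was the highest of the 12 arrays.

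PC, the pyruvate carboxylase of mitochondria, read 5.90, 5.72 and 5.89 at 1 day, against 6.50, 7.01 and 7.34 with cisplatin, at least 1.5-fold lower (limma adjusted p = 0.0162). Another PC probe did not show this pattern of detection. It was detected on all 1 day arrays and on only 2 of the cisplatin arrays, with a mean of 6.65 both at 3 days and in controls. LRBA, a protein of vesicle traffic, read 6.34, 6.18 and 6.43 at 1 day, against 7.19, 7.47 and 8.43 with cisplatin (log2 −1.38 ± 0.28, limma adjusted p = 0.0284). KLHL7, an adaptor of a ubiquitin ligase, read 6.28, 6.80 and 6.23 at 1 day, against 7.14, 7.37 and 7.69 with cisplatin (log2 −0.97 ± 0.19, limma adjusted p = 0.026). The lost probes of LRBA and KLHL7 were each detected on 1 of the 1 day arrays, while other probes of both genes were detected on all of them. On the lost probes of PC, LRBA and KLHL7 the groups stood apart without overlap. For LRBA and KLHL7 the cisplatin mean exceeded the control mean by 0.74 and 0.67.

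TMEM132D read 6.94, 7.08 and 6.87 at 1 day, against 7.85, 7.57 and 7.95 with cisplatin (log2 −0.83 ± 0.17, limma adjusted p = 0.0284), and RPS6KA2, a kinase downstream of ERK, read 6.49, 6.30 and 6.39, against 7.43, 7.40 and 6.77 (log2 −0.80 ± 0.18, limma adjusted p = 0.0472). The cisplatin levels of both lay near the controls, with differences from control of 0.00 and 0.10. CYP26A1, the enzyme that clears retinoic acid, went the other way. It read 7.05, 7.31 and 7.04 at 1 day, 5.42, 5.45 and 5.32 at 3 days, 6.53, 6.15 and 6.15 with cisplatin and 7.36, 7.22 and 7.53 in controls, so that the 1 day level was above that with cisplatin by log2 0.86 ± 0.16 (limma adjusted p = 0.0221), with no overlap.

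These calls rested on the spread of the whole set of arrays, which includes the 3 day and control arrays that chose the members. Within groups, the median standard deviation of the lost probes was 0.12 at 3 days and 0.20 in controls. It was 0.18 at 1 day and 0.42 with cisplatin. Over all tested probes these medians were 0.13, 0.18, 0.13 and 0.36 in the same order. None of the 9 passed in a fit to the 1 day and cisplatin arrays alone (limma adjusted p 0.106 to 0.338), which was chosen after seeing the data. Without cisplatin replicate 1 the number of lost probes called was 78 in place of 9, where 32.7% of all tested probes were called in place of 1.34%. Without any single 1 day array it was 1 or 2, with 0.287% to 0.336% of all tested probes called. PDE4B alone of the 9 was called in every alternative except the 2 group fit. Of the other lost probes 189 did not pass, among them MYC at log2 0.14 ± 0.19 (limma adjusted p = 0.68), LEFTY1 at −0.47 ± 0.21 (limma adjusted p = 0.176), TERF1 at −0.27 ± 0.45 (limma adjusted p = 0.743) and RRM2 at −1.39 ± 0.43 (limma adjusted p = 0.0855).

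**Figure D3:**
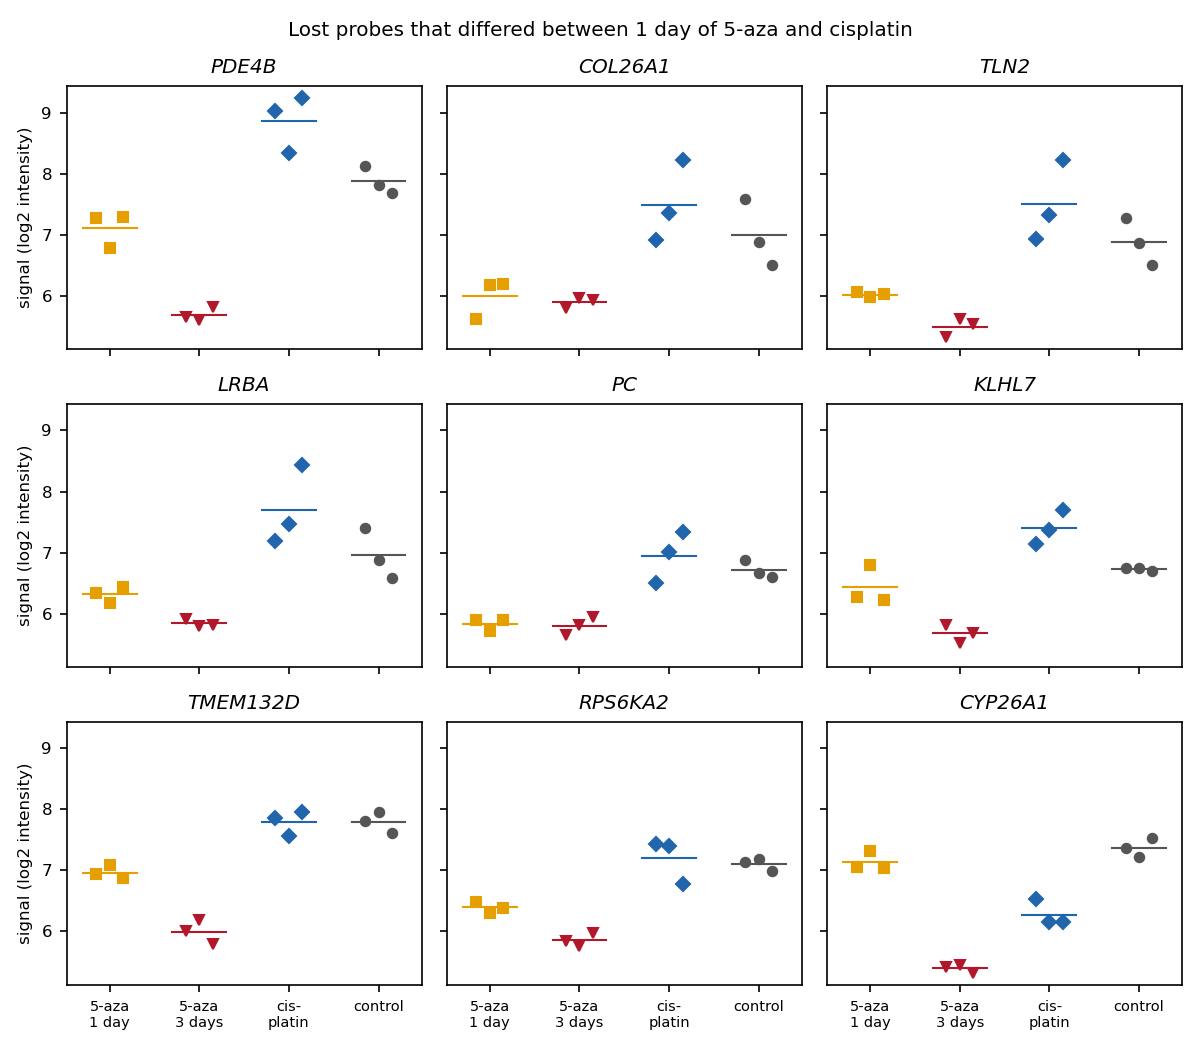
Signal (log2 intensity) of the 9 lost probes called between 1 day of 5-aza and cisplatin, with a point per array and a line at each group mean (n = 3). In 8 panels the 1 day points lie below the cisplatin points, and for CYP26A1 they lie higher (7.04 to 7.31 against 6.15 to 6.53).

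Set against control, the 1 day arrays were lower for most lost probes, with the caution that the controls chose the members for being detected there. The median log2 difference of 1 day minus control was −0.27, against 0.01 over all tested probes. The 1 day mean was below the control mean for 170 of 198 lost probes and for 6968 of all 14295 tested probes. For 157 lost probes the 1 day mean lay between those at 3 days and in controls. The rule chose probes detected in controls and undetected at 3 days, which favours such a place for any other group. No stepwise fall is read from that count. All 1 day arrays lay below all controls for 62 lost probes (background 9.78%). No lost probe was called lower, and the test called none of all tested probes lower either (background 0.0%), while 38 lost probes and 742 of all 14295 tested probes had an unadjusted p under 0.05. A fit without the cisplatin arrays, also chosen after seeing the data, and a fit with array weights each called 9 lost probes lower, where 0.525% and 0.776% of all tested probes were called in either direction. The brighter PITPNC1 probe stood at −1.14 ± 0.34 and MT1M at 0.38 ± 0.29, both detected on all 1 day arrays, while ITPK1 was detected on only 1 of them. LEFTY1 stood at 0.16, MYC at 0.18 and EFNB1 at −0.01, with 1 day and control arrays overlapping for all 3 genes.

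Of the 24 lost probes undetected on all 1 day arrays, the brightest in controls was FHOD3, a formin that assembles actin. It read 6.00, 6.10 and 6.02 at 1 day, 5.78, 5.68 and 6.06 at 3 days, 6.28, 6.88 and 7.56 with cisplatin and 7.72, 6.95 and 6.92 in controls, so that it was at least 1.78-fold lower at 1 day than in controls. COL26A1 (at least 1.54-fold), TLN2 (1.43), PHLPP1, a phosphatase that acts on AKT (1.41), CYP2S1, a cytochrome P450 (1.29), DENND1A, an exchange factor for Rab proteins (1.28), PC (1.27) and PNMA6A (1.24) followed. Of the 24, 8 were detected on all cisplatin arrays, COL26A1, TLN2, PHLPP1, DENND1A and PC among them. Only NPTX1 was detected on all 1 day arrays and on no cisplatin array.

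Cisplatin minus control gave a median of −0.11 over the lost probes, against −0.04 over all tested probes. The cisplatin mean was below the control mean for 120 of 198 lost probes and for 7725 of all 14295 tested probes. Under median scaling in place of quantile normalization the median of the lost probes was 0.08, so its direction depends on the scaling. All cisplatin arrays lay below all controls for 35 lost probes (background 9.38%), and 2 were called lower (background 0.336%), NPTX1, which no cisplatin array detected, and CYP26A1, which 1 of them detected (−1.09 ± 0.16). NPTX1, a neuronal pentraxin, read 6.51, 6.39 and 6.95 at 1 day, 6.28, 6.36 and 6.36 at 3 days, 6.07, 5.95 and 5.84 with cisplatin and 6.91, 7.13 and 7.47 in controls. It was thus at least 1.86-fold lower with cisplatin than in controls. At the other end RRM2 stood at 1.30 ± 0.43 and PDE4B at 0.99. Without cisplatin replicate 3 the number called was 7 lower and 0 higher, with 3.08% of all tested probes called. Without cisplatin replicate 1 it was 25 lower and 32 higher, with 27.8% of all tested probes called. The median standard deviation of the lost probes within a group was 0.18 at 1 day, 0.12 at 3 days, 0.42 with cisplatin and 0.20 in controls.

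**Figure D4:**
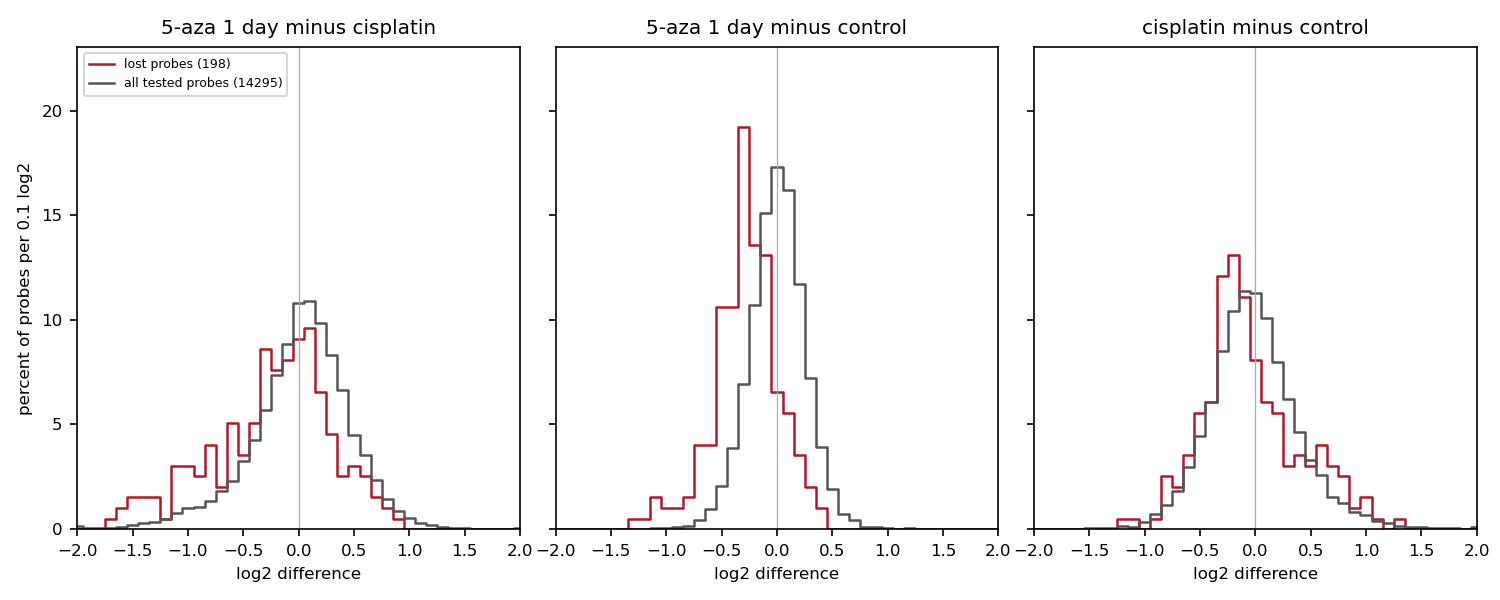
Distribution of log2 differences, as the percent of probes per 0.1 log2, for the 198 lost probes and all 14295 tested probes, for 1 day minus cisplatin, 1 day minus control and cisplatin minus control. The lost probes have medians of −0.16, −0.27 and −0.11 and all tested probes 0.05, 0.01 and −0.04, and the controls chose the members of both contrasts with control.

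In the contrast that the rule itself used, 3 days minus control, 111 of the 198 lost probes were called lower (background 6.85%), and nothing is read from that count.

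Few lost probes fell in the gene lists, which do not hold every gene of a pathway. Of all genes detected on the controls 196 of 8949 (2.19%) had a lost probe, and 14 of them fell in 12 of 19 gene lists. Signalling lists gave 1 gene each, LEFTY1 of 12 Nodal genes, BMPR2, a receptor for bone morphogenetic proteins, of 10, the Notch ligand JAG2 of 13, PDE4B of 9 in cyclic nucleotide signalling and CYP26A1 of 10 retinoid and HOX genes. No listed gene was lost among 20 of Wnt signalling, 17 of FGF and ERK feedback or 8 of the germline. The same held for 10 listed genes of the DNA methylation machinery and 19 of serine, folate and amino acid metabolism. It held too for 20 of DNA damage and p53 and 14 of the interferon response. At the share of 2.19% over all genes, lists this short would mostly hold no lost gene, so no sparing is read from them. These counts speak only for the listed genes, as AMER1, TMEM88, BID, MAGEB6 and AURKC each had a lost probe and stood in no list. TERF1 was the only loss among 29 listed pluripotency genes and EPHB1 the only loss among 23 listed neural genes. The neural list leaves out NPTX1, NCDN, NTM and GPM6B, which each had a lost probe.

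In the growth and metabolism lists, MYC and UTP20, a factor of ribosome assembly, were lost of 39 MYC target and ribosome biogenesis genes, RRM2 of 41 mitosis and replication genes and SREBF1, the sterol response transcription factor, of 24 lipid synthesis genes. The metallothionein MT1M was lost of 6. It read 7.24, 7.56 and 7.44 at 1 day, 5.35, 5.30 and 5.33 at 3 days, 7.82, 6.52 and 6.35 with cisplatin and 7.01, 6.92 and 7.17 in controls, and its 1 day arrays were above all controls. The histones H2AC18 and H2AC20, members of a family with near-identical copies whose signals an array may mix, were lost of 13. H2AC20 read 6.78, 7.17 and 6.68 at 1 day, 5.72, 5.69 and 5.76 at 3 days, 6.30, 8.57 and 7.45 with cisplatin and 7.24, 7.08 and 6.89 in controls.

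The lists with no lost gene hold no probe that the rule chose. In 3 days minus control, where limma called 6.85% of all tested probes lower and 8.81% higher, the FGF and ERK feedback list had 6 of 32 probes called lower and 4 higher, the p53 and DNA damage list had 3 of 34 lower and 11 higher, and the interferon list had 0 of 24 lower and 11 higher. Of Wnt signalling 2 of 31 were lower and 5 higher, of the germline list 0 of 21 lower and 2 higher, of serine, folate and amino acid metabolism 3 of 27 lower and 2 higher, and of the DNA methylation machinery 3 of 19 lower and 0 higher. Lists chosen with earlier results of these data known are no independent evidence of direction.

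By type of gene, 185 of 8620 protein coding genes with a probe detected on the controls were lost (2.15%). So were 4 of 130 transcribed pseudogenes and 6 of 48 small nucleolar RNA genes (12.5%), whose products often guide modification of ribosomal RNA. The 6 were SNORA6, SNORD12, SNORD35A, SNORD38A, SNORD87 and SNORD107. SNORA6 had the largest limit of them, at least 1.6-fold, and read 6.74, 6.53 and 7.16 at 1 day, 6.32, 5.99 and 6.34 at 3 days, 7.20, 8.02 and 7.17 with cisplatin and 7.58, 7.30 and 6.35 in controls. SNORD87 was undetected with cisplatin at 6.11, 5.93 and 5.98, read 7.06, 6.60 and 6.32 at 1 day and 6.06, 6.07 and 5.87 at 3 days, against 6.38, 6.86 and 7.23 in controls. SNORD38A showed the reverse, undetected at 1 day with 6.32, 6.31 and 6.25 and detected with cisplatin at 6.38, 6.94 and 6.83. These RNAs lie within introns of host genes, and whether a probe reads the small RNA or its host's precursor is not given in the sources used here.

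Of the larger families, 8 of 277 zinc finger genes were lost, among them ZNF423 and a pair of ZNF48 probes, 4 of 158 solute carriers (SLC13A3, SLC38A9, SLC6A15 and SLCO5A1), 3 of 116 TMEM genes, 2 of 26 ion channel genes (KCNAB2 and KCNG3), 1 of 28 homeobox genes (TGIF1) and 0 of 85 ribosomal protein genes. KCNAB2, a potassium channel subunit, read 5.99, 6.47 and 6.07 at 1 day, 6.34, 6.05 and 5.92 at 3 days, 6.04, 5.81 and 5.94 with cisplatin and 6.39, 6.51 and 6.33 in controls, with a limit of 1.01-fold. The 3 day and control arrays of KCNAB2 overlapped.

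A lost probe was often not a lost gene. Of the 196 genes, 109 had another named probe, and for 67 of these another probe was detected on all 3 day arrays. There were 91 other probes detected on all controls, of 72 genes, and 82 of the 91 were still detected on all 3 day arrays. Of the 91, 75 were lower at 3 days than in controls, 9 by 1 or more on the log2 scale, with a median log2 difference of −0.33 and a range of −2.01 to 0.87. For 87 genes the array held no named probe other than the lost, PITPNC1 and ZNF48 with a lost pair each among them, and for 19 all other probes were undetected on all 12 arrays.

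MYC, CYP26A1, BCOR and HNRNPM were lower on brighter probes as well. The brighter MYC probe averaged 8.03 at 3 days and 10.05 in controls, a log2 difference of −2.01 ± 0.28 (SE), beside at least 3.02-fold for the lost probe. The brightest CYP26A1 probe averaged 8.47 at 3 days, lower than controls by a log2 difference of −1.74 ± 0.21. BCOR, a corepressor partner of BCL6, had another probe that averaged 9.49 at 3 days and 10.81 in controls (−1.32 ± 0.30), beside at least 1.55-fold for its lost probe. HNRNPM, a splicing factor, had other probes at 13.27, 12.68 and 11.88 at 3 days, against 13.69, 13.33 and 12.89 in controls, log2 differences of −0.42 ± 0.15, −0.65 ± 0.19 and −1.01 ± 0.22, beside at least 1.53-fold for its lost probe.

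Further genes had a brighter probe that was detected on all 3 day arrays. TERF1 had another probe at 11.32 at 3 days and 11.92 in controls (−0.60 ± 0.20), beside at least 3.58-fold for the lost one. UBE2C, which feeds ubiquitin to the anaphase promoting complex, had another probe at 12.80 at 3 days and 12.94 in controls (−0.14 ± 0.19), and PSMC6, a proteasome subunit, had one at 11.78 and 11.98 (−0.20 ± 0.27). TGIF1, a homeobox corepressor, had bright probes at 12.28 and 11.22 at 3 days, against 12.23 and 11.24 in controls, where the lost probe's limit was 1.29-fold. NLRP8 had a bright probe at 11.74 at 3 days and 11.40 in controls (0.34 ± 0.21), and JAG2 one that was above control by 0.79 ± 0.16. In these genes the dim probe left the detectable range while another probe of the same gene did not. The transcripts that each probe reads are not given in the sources used here.

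**Figure D5:**
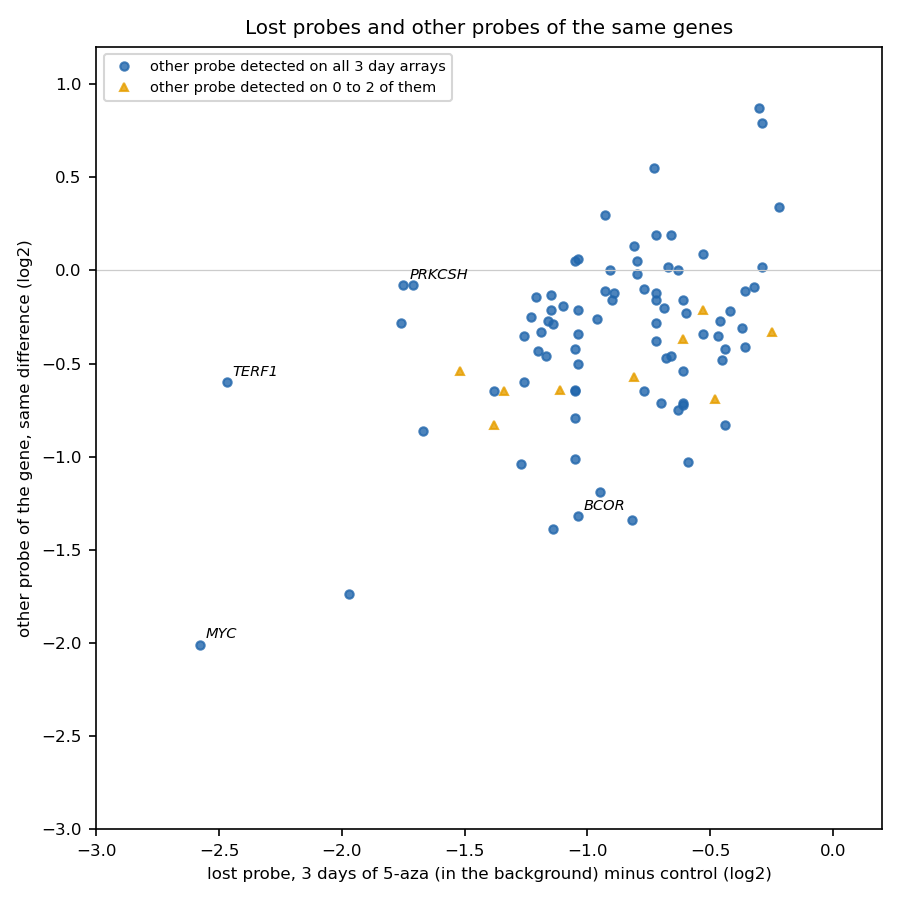
Log2 difference of 3 days of 5-aza minus control for the lost probe (horizontal axis, where the 3 day signal is background and the value is no size of a fall) and for each other probe of the same gene that was detected on all controls (vertical axis, 91 points), by whether the other probe was detected on all 3 day arrays (82) or on fewer (9). Of the 91 points 75 lie below 0 on the vertical axis, with the brighter MYC probe at −2.01 and the other TERF1 probe at −0.60.

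Relatives of the most reduced genes were mostly still detected at 3 days. LEFTY2, the close paralog of LEFTY1, averaged 7.29 at 3 days and 8.81 in controls, a difference of −1.52, and the sequences of the pair are alike enough that a probe may read both. GLI1 averaged 7.25 at 3 days and 8.15 in controls and GLI3 7.91 and 8.39, beside 5.72 and 7.60 for GLI2. The ephrins EFNB2 and EFNB3 stood at 8.01 and 8.63 at 3 days, against 7.99 and 7.53 in controls, where EFNB1 was lost. RRM1, the large subunit of ribonucleotide reductase, averaged 12.79 at 3 days and 12.61 in controls, and the telomere protein TERF2 8.56 and 8.58.

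Among glypicans GPC4 averaged 8.73 at 3 days and 10.02 in controls, GPC2 9.83 and 9.46, and a second GPC6 probe 7.21 and 7.29, beside 5.97 and 7.67 for the lost GPC6 probe. Of the phosphodiesterases PDE4A averaged 7.19 at 3 days and 6.74 in controls and PDE4C 13.68 and 13.40, and both were detected on all 3 day arrays. Of 21 genes whose symbols begin with CDK, on 29 probes, CDK12 and CDK14 were lost, while CDK13 averaged 9.09 and 8.79 on its probes at 3 days, against 9.25 and 9.0 in controls. ING3 had further probes detected on all controls, 1 at 8.80 at 3 days and 9.45 in controls and 1 at 6.15 and 6.98 that a single 3 day array detected.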

How the data were processed

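RNA of 12 NT2/D1 samples was read on Illumina HumanHT-12 v4 arrays, 3 for each of 4 groups given by the labels. Per the labels the authors summarised beads in GenomeStudio (version not given in the sources used here). The deposited non-normalized table holds linear bead intensity with no background subtracted, and the authors deposited a detection p-value beside each intensity. The deposited normalized table holds the intensity after the authors' quantile normalization and served as an alternative.

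Intensities were background corrected by the nec function, which infers the negative controls from detection p-values (offset 16), quantile normalized and put on the log2 scale with limma 3.58.1 in R 4.3.3. Named probes with a detection p-value under 0.05 on at least 3 of 12 arrays (14295) entered a linear model with a mean per group (lmFit, eBayes, 8 residual and 5.56 prior degrees of freedom, two-sided, Benjamini-Hochberg adjustment, called at an adjusted p under 0.05). Of all probes 30112 carried a single symbol, 8 several and 17111 none in the platform annotation, and the symbols of 30069 were updated through RefSeq. The fit was tested on data simulated from these arrays. Precision is limited by the number of arrays.

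The members and gene lists were chosen with earlier results of these data known. The text names the 20 largest limits, up to 10 called between 1 day and cisplatin, the brightest 8 undetected or detected in each way on the 1 day and cisplatin arrays, list members, those next to the threshold, up to 6 genes with another bright probe, and relatives by symbol. BCOR, ZNF423, KCNG3, SNORA6, SNORD38A and others given only by name or count were chosen after their values were seen. The same holds for the other probes of MYC, JAG2, FAM120AOS and NCDN. Alternatives were median scaling, the deposited normalized values, an offset of 50, a detection p-value of 0.01, no filter, all kept probes, the brightest probe per gene, array weights, the replicate number as a block, and leaving out each array.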

Additional observations from a re-analysis of the deposited data

How the results depend on the processing

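The number of lost probes was 198, and 256 to 504 with an array left out. Those undetected on all 1 day arrays numbered 24, 37 with unnamed probes counted, and 26 to 138 with an array left out. Those undetected with cisplatin numbered 12, 7 at a detection p-value of 0.01, and 12 to 52 with an array left out. All 3 maxima came without control replicate 2. Leaving out an array relaxes the rule by a condition, which widens the set.

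The lost probes called between 1 day and cisplatin numbered 9, and 2 with median scaling, where 1.34% and 0.728% of all tested probes were called. They numbered 39 with array weights (15.2% of all tested probes) and 0 with only the 1 day and cisplatin arrays fitted (0.07%). With an array left out they numbered 1 to 78 (0.287% to 32.7%). Those called lower at 1 day than in controls numbered 0, and 9 with array weights or with no cisplatin arrays in the fit. These 2 fits called 0.776% and 0.525% of all tested probes in either direction. Leaving out any array gave 0. For cisplatin minus control there were 2, 1 with the brightest probe per gene (which keeps 125 of the lost probes), 14 with array weights, and 2 to 25 with an array left out. For 3 days minus control there were 111, 69 with the brightest probe per gene, and 64 to 146 with an array left out. Here the shares of all tested probes were 15.7%, 17.1% and 7.83% to 26.1%. The cause of these shifts was not tested.

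The median difference of 1 day minus control was −0.27, −0.15 on the deposited normalized values, and −0.29 to −0.23 with an array left out. That of 1 day minus cisplatin was −0.16, −0.40 with median scaling, and −0.20 to −0.06 with an array left out. That of cisplatin minus control was −0.11, and 0.08 with median scaling. None of the 9 called probes changed direction, and all but PDE4B lost the call in 6 to 16 of 21 or 22 alternatives.

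With the replicate number as a block, 3 lost probes were called between 1 day and cisplatin in place of 9. Samples that share a number correlated at −0.503 to 0.22 in their deviations from the group means, over 0.1 for 2 of 18 pairs. These signals thus show no pairing by number, and whether the samples were grown in pairs is not given in the labels. The replicate block changed no other count by over 1.5 times. Signals of lost probes lay close to the array background, which limits every difference given for them.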

Other observations

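Outside the named probes, 67 of 2768 probes without a single gene symbol that were detected on all controls were undetected on all 3 day arrays. The same rule with the 1 day arrays in place of the 3 day arrays was met by 60 named probes, and 42 met it in the other direction. With the cisplatin arrays it was met by 25 named probes, and 95 met it in the other direction.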
